A study of Mus musculus with 6 samples.

Results

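Cadherin and protocadherin genes were compared between B16 cells given DMSO and B16 cells given 1 uM CX5461 (CX-5461) for 3 days. B16 is a pigmented melanoma line of the mouse, DMSO is the vehicle, and CX-5461 is a compound developed to block the synthesis of ribosomal RNA by RNA polymerase I. The members were all genes of the deposited count table with a symbol made of Cdh and a number, or with a symbol that starts with Pcdh, and these were 59 of its 22740 genes. They comprised 23 numbered cadherins and 36 protocadherins. Total RNA was sequenced from 3 DMSO samples and 3 CX-5461 samples. All 6 came from this line, which the design text calls B16-F10 and which is labelled BRAFV600E-negative, and all were grown in DMEM with FBS and penicillin/streptomycin. The results therefore describe 1 cultured line, and the vehicle samples were the controls. The study as titled is about separating melanoma cells by their content of melanin, and the question here is how far CX-5461 shifted the expression of these adhesion genes.

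Cadherins are calcium-dependent adhesion proteins whose extracellular repeats bind the same or a related cadherin on the next cell. The tails of the classical cadherins, which are grouped into types I and II, hold catenins that link the junction to actin. Protocadherins have more of the same repeats and tails that do not bind beta-catenin. The clustered ones (Pcdha, Pcdhb and Pcdhg) lie in a tandem array from which neurons express varying combinations, with the factor CTCF and cohesin folding enhancers onto the promoters. The non-clustered ones are spread over the genome and are best known from the nervous system. In skin, E-cadherin (Cdh1) joins melanocytes to keratinocytes, and melanomas often express N-cadherin (Cdh2) in its place.

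Library totals ran from 17573990 to 22908309 counts. Levels are given as CPM, a gene's count relative to the total of its library after scaling by TMM factors, with the mean ± SD of 3 libraries and DMSO before CX-5461. Log2 changes are CX-5461 minus DMSO, with their SE. Of all genes, 12198 had enough counts to be tested. Markers of the melanocyte lineage were abundant, with 7 of 7 higher after CX-5461, where 37.2% of all genes tested were higher. Their log2 changes ran from 0.15 (Pmel) to 2.18 (Mitf). Their summed level was 22080 to 22930 CPM with DMSO and 28250 to 30560 with CX-5461, and their part in the results on cadherins was not tested. The 4 keratinocyte markers summed to at most 0.0506 CPM and the 4 leukocyte markers to at most 0.0575 CPM. Replicates of the CX-5461 group differed more from each other than those of the DMSO group, with 5.65 to 9.39 against 1.57 to 2.54 as the chi-square over its degrees of freedom. The 2 highest values, 9.39 and 7.64, both involved CX-5461 replicate 2. No label says that the replicates were separate cultures, so p-values measure the spread between these samples, which may be technical.

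After CX-5461, 16 of the 29 cadherin and protocadherin genes with enough counts to test were higher, with N-cadherin, T-cadherin (Cdh13) and Pcdh7 each up more than 3-fold, while Cdh19, the member with the highest level per kb of exon, fell. Those first 3 genes span over 200 kb, and with an offset for gene span Cdh2 was 1.86-fold and Pcdh7 1.21-fold higher and Cdh13 was not called. The summed level of the 59 genes was 366.9, 370.9 and 397.6 CPM in the DMSO libraries and 536.4, 507.6 and 530.5 CPM in the CX-5461 libraries, a ratio of means of 1.39. Every CX-5461 library lay above every DMSO library. In these bulk samples, fewer cells of a type and less RNA per cell cannot be told apart. Of the 59 genes 29 passed the filter on low counts, and of those 16 were higher, 2 lower and 11 did not pass at an adjusted p below 0.05 (edgeR's quasi-likelihood test with Benjamini-Hochberg adjustment over all genes tested, two-sided). Without CX-5461 replicate 2 these were 15 higher and 2 lower. Over all genes tested 73.7% were called, 37.2% as higher and 36.5% as lower, and of the tested members 55.2% were higher. The libraries of the groups did not overlap for 18 of the 29 members and for 76.2% of all genes tested. The share of members called in either direction, and the share not overlapping, were thus no larger than over all genes. At least 2-fold higher were 10 of the 29 members, against 11.7% of all genes tested. Of the 10, Pcdhb9 and Pcdh12 passed the filter through the CX-5461 libraries only. With the offset for gene span 6 members were at least 2-fold higher, and the share of all genes was not counted for that fit. The median log2 change was 0.65 over the 29 members and -0.005 over all genes tested. Differences between the classes described next were not tested.

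**Figure D1:**
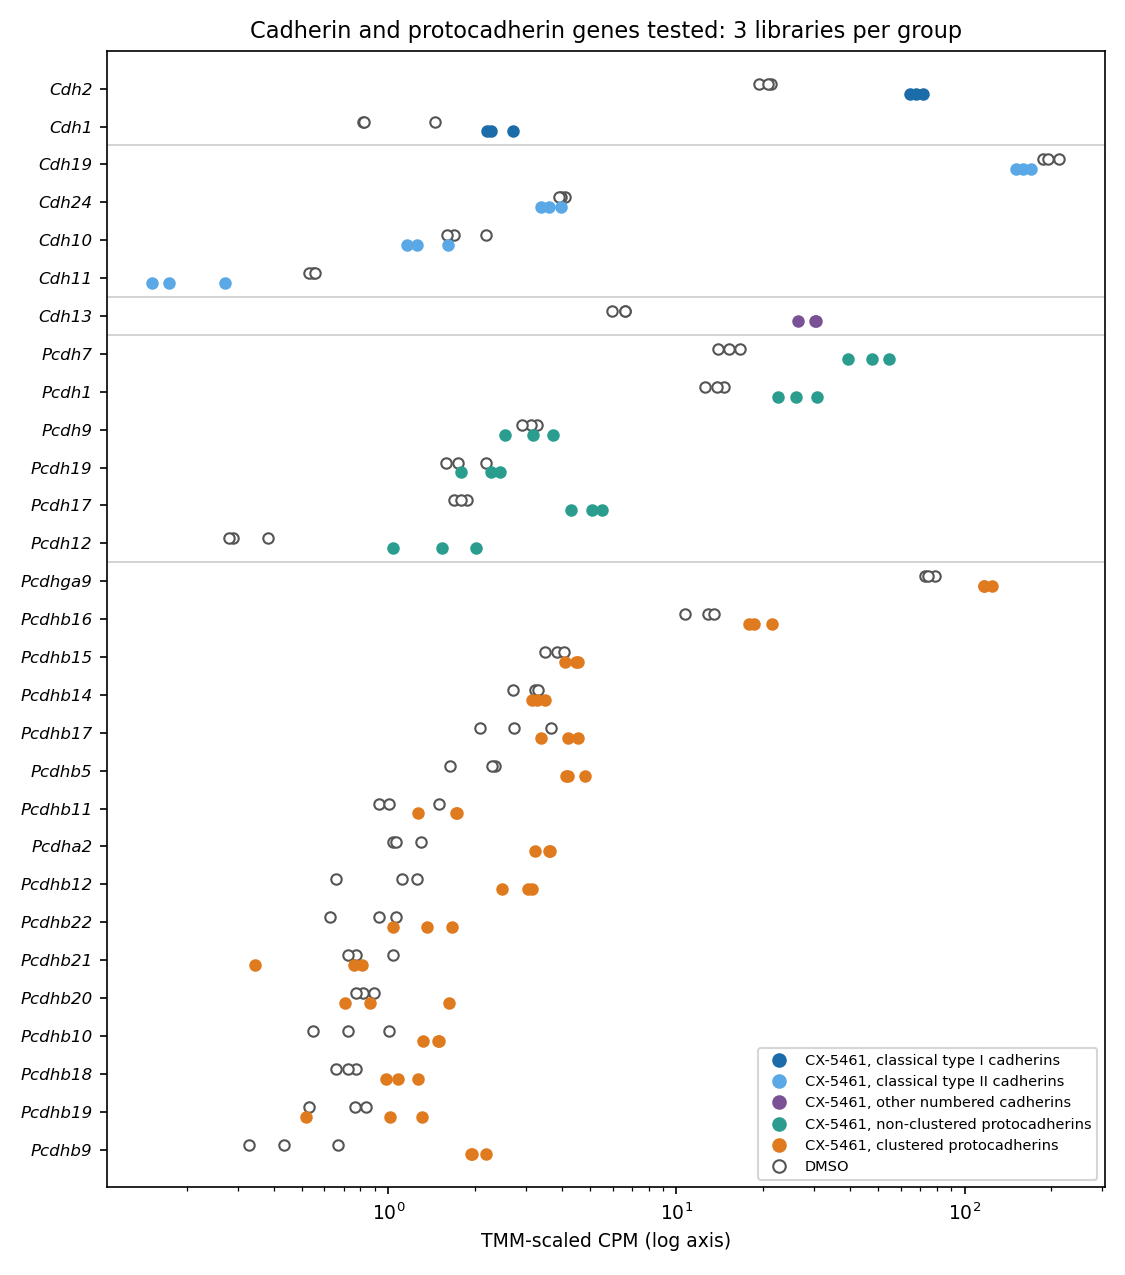
Level of each of the 29 tested genes in every library, in TMM-scaled CPM on a log axis, with DMSO as open and CX-5461 as filled points coloured by class. The points of the groups were fully apart for 18 of the 29 genes, with CX-5461 to the right in 16 of them.

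The filter can favour genes that differ. Passing through the libraries of a group only means that all of them reached the cut, while some but not all of the other group may have. Of the 29 genes, 24 passed it in both groups, Pcdhb9 and Pcdh12 through the CX-5461 libraries only, and Cdh11, Pcdhb19 and Pcdhb21 through the DMSO libraries only. Some CX-5461 libraries also reached the cut for Pcdhb19 and Pcdhb21. The counts of called members therefore describe the expressed genes and not the whole families.

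Of the 59 genes, 11 (18.6%) were silent, with no count in any of the 6 libraries, where 29.3% of all genes in the table had none. The comparison depends on the definition, as 50.8% of the members and 46.4% of all genes failed the filter on low counts. The type II cadherins held 5 of the 11 silent genes. These were Cdh5, the adhesion protein of endothelial junctions, and Cdh7, Cdh8, Cdh9 and Cdh12, which are known from the nervous system. Among the other numbered cadherins, Cdh16, a kidney cadherin, and Cdh26 had no count. Among the non-clustered protocadherins these were Pcdh8, Pcdh10, Pcdh11x and Pcdh20. No type I cadherin and none of the 24 clustered protocadherins was without a count. A count of 0 allows up to 3 counts per library, or 0.135 to 0.173 CPM, and this limit covers counting error only.

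A further 19 genes had counts but too few to be tested. Named with their total over the 6 libraries, they included Cdh15, the muscle cadherin, with 31 counts, Cdh6 with 10, the intestinal cadherin Cdh17 with 27 and Cdh23, of the hair-cell tip link, with 11. Of the clustered genes these were Pcdhb2 with 37 counts, Pcdhb3 with 24, Pcdhb4 with 53, Pcdhb6 with 11, Pcdhb7 with 26, Pcdhb8 with 28 and Pcdhb13 with 9. Pcdh18 had 11 counts. The other 7, at a mean under 0.1 CPM in both groups, had 1 to 5 counts each and included P-cadherin (Cdh3), R-cadherin (Cdh4) and Pcdh15, the partner of Cdh23. Without the filter, Pcdhb4 (0.328, 0.0965 and 0.168 CPM with DMSO, 1.08, 0.518 and 0.455 with CX-5461) and Pcdhb2 (0.164, 0.193 and 0.168 with DMSO, 0.405, 0.575 and 0.404 with CX-5461) were called higher, with an adjusted p of 0.00262 and 0.0472 from edgeR.

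**Figure D2:**
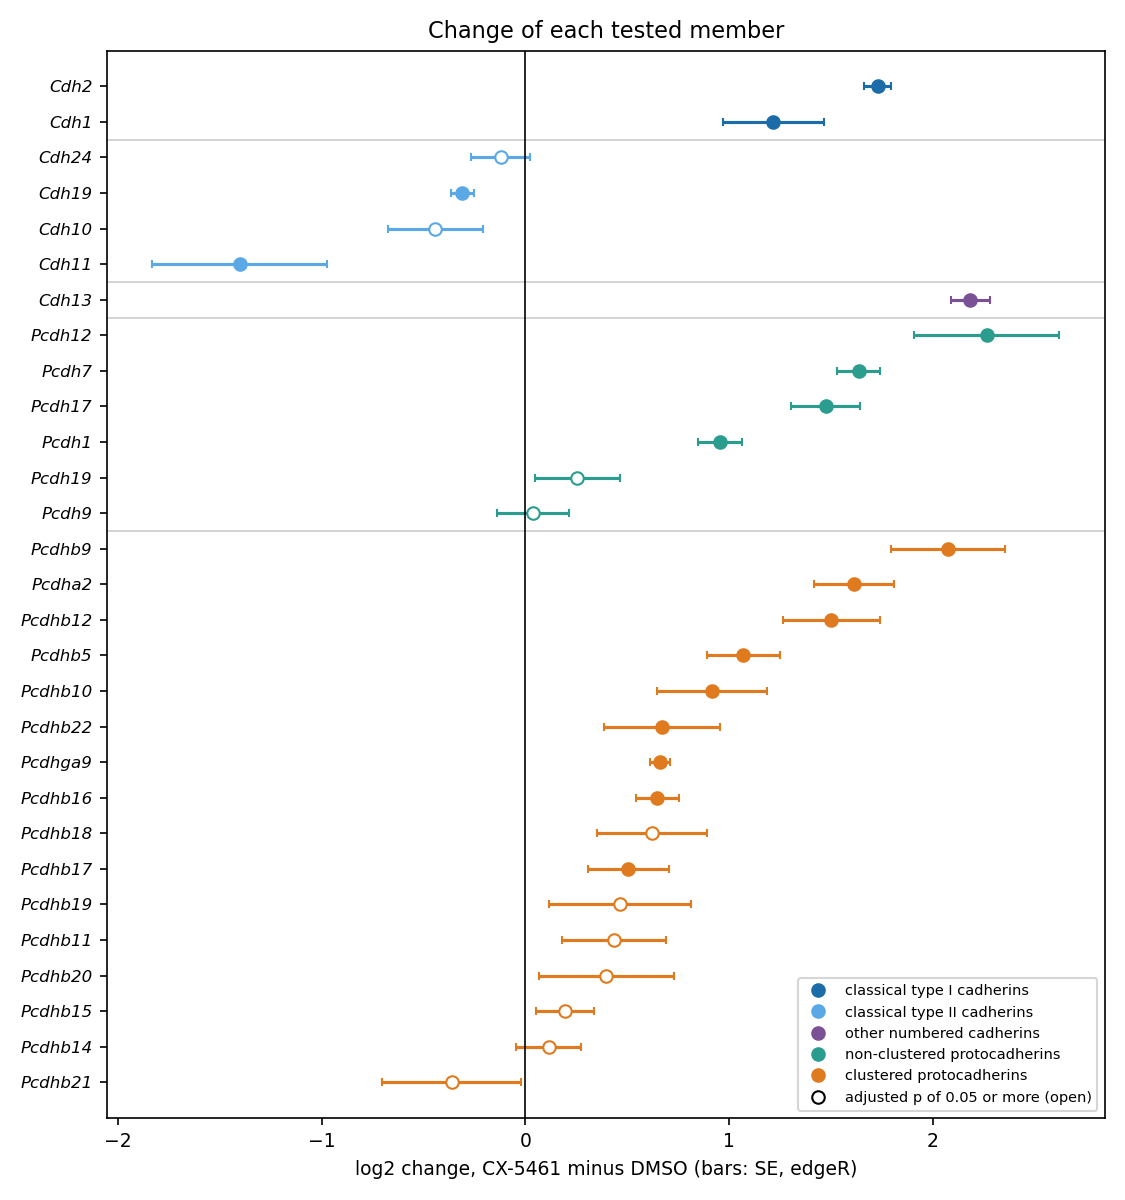
Log2 change of the 29 tested genes, CX-5461 minus DMSO, with SE as bars and open points where the adjusted p was 0.05 or more. Filled points to the right of 0 mark 16 genes and filled points to the left mark Cdh19 and Cdh11.

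Both type I cadherins that could be tested rose, where 37.2% of all genes tested were higher. Cdh2 (ENSMUSG00000024304; chromosome 18, 16588877 to 16809246, GRCm38), the N-cadherin of neural and mesenchymal cells, held 19.4, 21.2 and 20.8 CPM in the DMSO libraries and 68.0, 64.4 and 71.7 CPM in the CX-5461 libraries. The groups were far apart beside the spread within each. The rise was 3.32-fold, from 20.5 ± 0.967 to 68.0 ± 3.66 CPM, with a log2 change of 1.73 ± 0.065 (SE) and an adjusted p of 3.16e-12. Cdh1 (ENSMUSG00000000303; chromosome 8, 106603351 to 106670246), the E-cadherin of epithelia, held 0.820, 0.821 and 1.45 CPM with DMSO and 2.21, 2.70 and 2.27 with CX-5461. DMSO replicate 3 stood above the other two, and the groups did not overlap. Its rise was 2.32-fold, with a log2 change of 1.22 ± 0.25 and an adjusted p of 3.75e-04. Per kb of exon, Cdh1 stayed far below Cdh2, at 0.225 against 2.54 CPM per kb with DMSO and 0.524 against 8.43 with CX-5461. The fibroblast and neuron markers that could be read beside N-cadherin went opposite ways. The summed level of the 4 fibroblast markers was 9.72 to 14.3 CPM in the DMSO and 7.13 to 7.97 CPM in the CX-5461 libraries, with Dcn and Lum at or near 0, and that of the 4 neuron markers was 2.75 to 3.44 and 5.75 to 7.21 CPM, nearly all from Map2, with Snap25 at 0. Their part in the result was not tested.

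Of the 13 type II cadherins 4 could be tested, of which Cdh19 and Cdh11 were lower, none was higher and 2 did not pass. Over all genes tested 36.5% were lower, and Cdh11 passed the filter through the DMSO libraries only. Cdh19 (ENSMUSG00000047216; chromosome 1, 110888326 to 110977584), known from the Schwann cell and neural crest lineage, held 187, 195 and 213 CPM with DMSO and 170.0, 159.5 and 150.5 with CX-5461. Each CX-5461 library was below each DMSO library, though the step was small. It fell 1.24-fold, from 198 ± 13.6 to 160.0 ± 9.77 CPM (log2 change -0.31 ± 0.057, adjusted p = 1.55e-04). Cdh11 (ENSMUSG00000031673; chromosome 8, 102632095 to 102785642), the osteoblast cadherin of mesenchymal cells, had 10, 11 and 10 counts with DMSO and 6, 3 and 3 with CX-5461, or 0.546, 0.531 and 0.558 and 0.270, 0.173 and 0.152 CPM. All the CX-5461 libraries were lower, and all were near the floor of 3 counts. Its log2 change was -1.40 ± 0.43 with an adjusted p of 0.00811 in edgeR, and DESeq2 gave an adjusted p of 0.0536, which ends the call. The fibroblast markers Col1a1 and Pdgfra were lower too, at log2 changes of -1.30 (adjusted p = 1.08e-05) and -0.37 (adjusted p = 0.0442). The groups overlapped for Pdgfra. The part of these markers in the value of Cdh11 was not tested. Cdh10, a cadherin known from brain, held 1.69, 1.59 and 2.18 and 1.26, 1.61 and 1.16 CPM and did not pass (log2 change -0.44 ± 0.23, adjusted p = 0.0969). Cdh24 held 3.99 ± 0.0980 and 3.66 ± 0.290 CPM and did not pass either (log2 change -0.12 ± 0.14, adjusted p = 0.464).

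Among the 5 other numbered cadherins only Cdh13 could be tested. Cdh13 (ENSMUSG00000031841; chromosome 8, 118283733 to 119324921) encodes T-cadherin, which is held in the membrane by a lipid anchor and has no tail for catenins. It held 5.96, 6.61 and 6.65 CPM with DMSO and 30.6, 26.4 and 30.3 with CX-5461. No library of one group came near the other. The rise was 4.54-fold, from 6.41 ± 0.389 to 29.1 ± 2.38 CPM, with a log2 change of 2.18 ± 0.096 and an adjusted p of 1.91e-11. With the gene-span offset, which takes out the average relation of change to gene length and is described further on, the log2 change was -0.067 (adjusted p = 0.559), which ends the call.

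These changes altered the makeup of the cadherin transcripts. Cdh19 took 85.1 ± 0.484% of the counts of the 23 numbered cadherins with DMSO and 60.2 ± 2.16% with CX-5461 (SD, n = 3). The share of Cdh2 was 8.80 ± 0.425% and 25.6 ± 1.63%, and that of Cdh13 was 2.75 ± 0.105% and 11.0 ± 0.739%. Cdh1 stayed near 1% or below in every library, with means of 0.437% and 0.904%. Counts of Cdh2 were 10.3 ± 0.555% of those of Cdh19 with DMSO and 42.7 ± 4.32% with CX-5461, with no overlap between groups. Shares of counts also follow transcript length. Per kb of exon, Cdh19 was still the highest at 37.4 CPM per kb with CX-5461, against 8.43 for Cdh2, 2.59 for Cdh13 and 1.05 for Cdh24. Summed over type I the level was 21.8 ± 0.995 and 70.7 ± 3.51 CPM, and over type II it was 204.8 ± 13.8 and 165.4 ± 9.97 CPM. Over both types it was 226.6 ± 14.6 and 236.1 ± 8.77 CPM, in groups that overlapped.

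**Figure D3:**
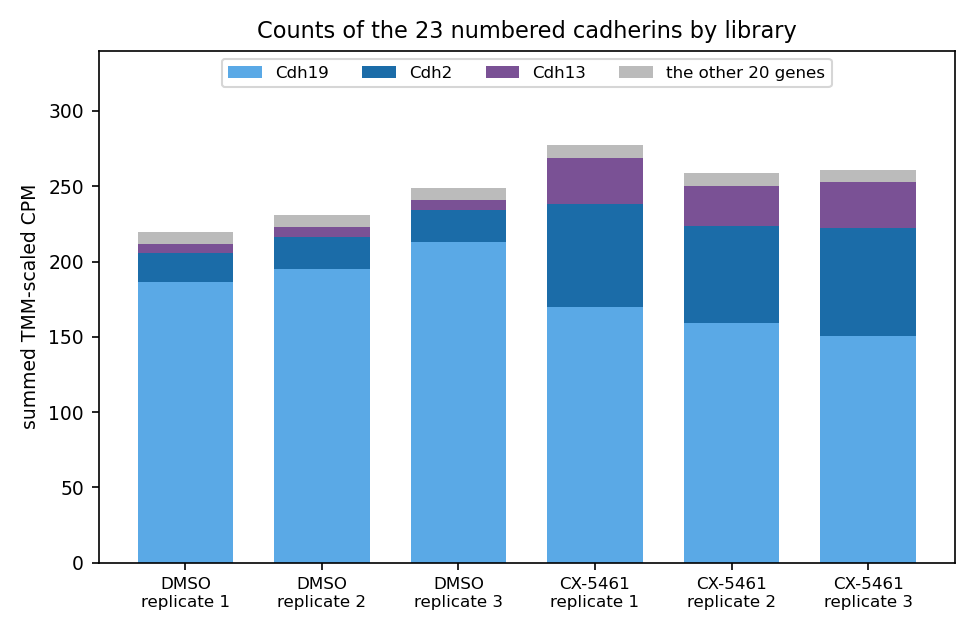
Summed TMM-scaled CPM of the 23 numbered cadherins in each library, stacked by gene. The Cdh19 part is smaller and the Cdh2 and Cdh13 parts are larger in the 3 CX-5461 libraries than in the 3 DMSO libraries.

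Of the 24 clustered protocadherin genes 16 were tested, of which 9 were higher, 7 missed the threshold and none was lower. Over all genes tested 37.2% were higher, and of the 9 Pcdhb9 passed the filter through the CX-5461 libraries only. The 16 had a median log2 change of 0.64. The summed level of the 24 was 109.2 ± 3.37 CPM with DMSO and 173.6 ± 3.12 with CX-5461, a ratio of 1.59. The table lists 1 row named Pcdha2 and 1 named Pcdhga9, while the GENCODE M21 annotation of GRCm38 holds 14 Pcdha and 22 Pcdhg genes. The identifiers of these rows (ENSMUSG00000007440 and ENSMUSG00000023036) carry the symbols Pcdha11 and Pcdhgc4 in that annotation. Their constant exons are shared with the rest of each cluster, and 57.6% and 36.6% of their 75-base words occur in another gene. These values therefore cannot be assigned to 1 isoform, and no level per length is given for them.

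The row Pcdhga9 held 78.8, 73.0 and 74.7 CPM with DMSO and 117, 124 and 117 with CX-5461. The libraries of each group lay close together, and the groups were apart. It rose 1.58-fold (log2 change 0.66 ± 0.05, adjusted p = 1.04e-08) and made up 69.1 ± 1.63% and 68.8 ± 1.07% of clustered protocadherin counts, a share that overlapped between the groups. The row Pcdha2 held 1.04, 1.30 and 1.06 CPM and 3.65, 3.62 and 3.24 CPM. It was low in all libraries and clearly higher after CX-5461, at 3.06-fold (log2 change 1.61 ± 0.20, adjusted p = 2.09e-06), or 1.91-fold with the gene-span offset. That offset used the 182.5 kb span of the identifier in GENCODE M21, which may not be the span of the transcripts counted.

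Each Pcdhb gene has its coding sequence in 1 exon behind its own promoter, and apart from Pcdhb12 the tested ones share 0.20% to 8.96% of their 75-base words with other genes. Along the array, 1 of the 8 genes from Pcdhb1 to Pcdhb8 and 13 of the 14 from Pcdhb9 to Pcdhb22 had enough counts to be tested. The summed level of the 22 genes was 31.7, 31.1 and 35.02 CPM with DMSO and 51.6, 49.5 and 50.8 with CX-5461. Each CX-5461 library was above each DMSO library. Of the 14 tested, 7 were higher, none was lower and 7 did not pass, where 37.2% of all genes tested were higher. The median log2 change of the 14 was 0.56, and 13 of the 14 log2 changes were positive.

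Pcdhb16 (ENSMUSG00000047910; chromosome 18, 37477814 to 37483038) was the most abundant Pcdhb gene per kb of exon, at 2.36 CPM per kb with DMSO, a level whose libraries overlapped those of Cdh2. It held 12.9, 10.7 and 13.5 CPM with DMSO and 17.8, 18.6 and 21.4 with CX-5461. All 3 CX-5461 libraries were above the DMSO ones. The rise was 1.57-fold (log2 change 0.65 ± 0.10, adjusted p = 4.16e-05), and its share of Pcdhb counts was 37.8 ± 3.23% and 38.1 ± 3.77%. Pcdhb9 (ENSMUSG00000051242; chromosome 18, 37400855 to 37403909) had the largest change of the Pcdhb genes tested. It held 0.328, 0.434 and 0.670 CPM with DMSO and 1.94, 1.96 and 2.17 with CX-5461, or 6, 9 and 12 counts and 43, 34 and 43 counts. The CX-5461 libraries were close together and the DMSO libraries were few in counts. Its rise was 4.22-fold (log2 change 2.08 ± 0.28, adjusted p = 6.89e-06).

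Pcdhb12 held 0.656, 1.25 and 1.12 CPM and 3.15, 3.05 and 2.48 CPM and rose 2.83-fold (log2 change 1.50 ± 0.24, adjusted p = 3.53e-05). Its groups were apart, but an antisense gene, Gm37446, covers 63.5% of its exonic length. The use of strand in counting is not given in the sources used here, so the reads of the 2 genes cannot be told apart. Pcdhb5 held 2.35, 1.64 and 2.29 CPM and 4.19, 4.83 and 4.15 CPM and rose 2.10-fold (log2 change 1.07 ± 0.18, adjusted p = 5.71e-05). Pcdhb10 held 0.546, 0.724 and 1.00 CPM and 1.49, 1.50 and 1.31 CPM and rose 1.89-fold (log2 change 0.92 ± 0.27, adjusted p = 0.00684). Both had groups that did not overlap.

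The calls of Pcdhb17 and Pcdhb22 were weaker, and their groups overlapped. Pcdhb17 held 2.08, 3.67 and 2.74 CPM with DMSO and 4.55, 4.20 and 3.39 with CX-5461 (log2 change 0.51 ± 0.20, adjusted p = 0.0317). The call was lost without DMSO replicate 1 (adjusted p = 0.166), DMSO replicate 3 (0.0879), CX-5461 replicate 1 (0.123) or CX-5461 replicate 2 (0.0501), and with library totals in place of TMM (0.0591). Pcdhb22 held 0.929, 0.627 and 1.06 CPM and 1.67, 1.04 and 1.36 CPM (log2 change 0.67 ± 0.28, adjusted p = 0.0442). Its call was lost without DMSO replicate 1 (0.0764) or 2 (0.201) and without CX-5461 replicate 1 (0.194) or 3 (0.0809). It was also lost with library totals (0.0684), no filter (0.0553), DESeq2 (0.131), limma-voom (0.0526) and thinned counts (0.0623).

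The other 7 Pcdhb genes tested did not pass. Pcdhb18 was the nearest, with 0.656, 0.772 and 0.726 CPM and 1.08, 0.978 and 1.26 CPM in groups that did not overlap (log2 change 0.62 ± 0.27, adjusted p = 0.0506), and with upper-quartile factors its adjusted p was 0.0488. Pcdhb15 held 3.50, 3.86 and 4.08 and 4.10, 4.49 and 4.55 CPM, also without overlap (0.20 ± 0.14, adjusted p = 0.225). Pcdhb11, at 1.14 and 1.57 CPM on average, had a log2 change of 0.43 ± 0.26 (adjusted p = 0.139, or 0.0390 with counts thinned to the smallest library). Pcdhb14, at 3.07 and 3.31 CPM, had 0.12 ± 0.16 (adjusted p = 0.527). The last 3 had under 2 CPM in every library. Pcdhb19 had 0.711 and 0.945 CPM (0.46 ± 0.35, adjusted p = 0.241), and Pcdhb20 had 0.829 and 1.06 CPM (0.40 ± 0.33, adjusted p = 0.289). Pcdhb21 was the 1 with a negative sign, at 0.846 and 0.638 CPM (-0.36 ± 0.34, adjusted p = 0.350).

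**Figure D4:**
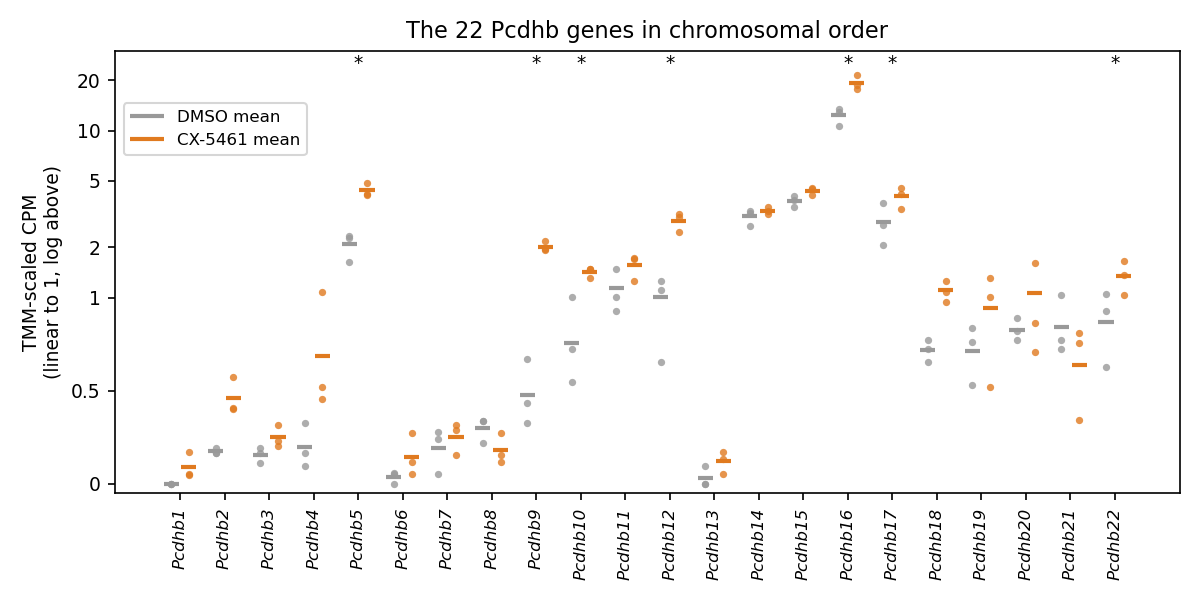
TMM-scaled CPM of the 22 Pcdhb genes in chromosomal order, with a point per library, a bar at the mean of each group and an asterisk over the 7 genes called higher. The axis is linear up to 1 CPM and logarithmic above. Most of the first 8 genes lie near 0, and the asterisks fall on Pcdhb5, Pcdhb9, Pcdhb10, Pcdhb12, Pcdhb16, Pcdhb17 and Pcdhb22.

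Among the 12 non-clustered protocadherins, 4 of the 6 tested were higher and none lower, where 37.2% of all genes tested were higher. Of the 4, Pcdh12 passed the filter through the CX-5461 libraries only. The median log2 change of the 6 was 1.22. With the gene-span offset the median was 0.60, and Pcdh9 was called lower. The summed level of the 12 was 35.5, 34.9 and 37.7 CPM with DMSO and 86.9, 71.5 and 98.6 with CX-5461. CX-5461 replicate 2 was the lowest of its group and still above every DMSO library. In the delta-1 subfamily, Pcdh7 (ENSMUSG00000029108; chromosome 5, 57717967 to 58133230), first described in brain and heart, held 13.9, 15.2 and 16.6 CPM with DMSO and 47.9, 39.3 and 54.6 with CX-5461. It rose 3.11-fold, from 15.2 ± 1.36 to 47.3 ± 7.70 CPM (log2 change 1.64 ± 0.11, adjusted p = 1.95e-09). The gene-span offset brought it to 1.21-fold (adjusted p = 0.0350), and an antisense gene, 4932441J04Rik, overlaps 21.1% of its exonic length. Its share of non-clustered counts was 42.3 ± 2.67% with DMSO and 55.2 ± 0.250% with CX-5461. Pcdh1 (ENSMUSG00000051375; chromosome 18, 38185914 to 38212053), a protocadherin of airway and skin epithelium, held 14.6, 12.6 and 13.8 CPM and 26.0, 22.5 and 30.8 CPM. The groups did not overlap, and it rose 1.94-fold (log2 change 0.96 ± 0.11, adjusted p = 9.84e-07).

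Of the remaining delta-1 members, Pcdh11x was silent and Pcdh9 (ENSMUSG00000055421; chromosome 14, 93013410 to 93890679), known from the nervous system, did not pass. Pcdh9 held 3.28, 3.14 and 2.90 CPM and 3.74, 2.53 and 3.19 CPM, with CX-5461 replicates on both sides of the DMSO range (log2 change 0.036 ± 0.18, adjusted p = 0.863).

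The delta-2 subfamily ran from called higher to silent, with none called lower, and the promoter sequences of 4 members are shown for that reason. Pcdh17 (ENSMUSG00000035566; chromosome 14, 84443563 to 84539002), known from axon growth in the brain, held 1.69, 1.88 and 1.79 CPM with DMSO and 5.09, 4.32 and 5.51 with CX-5461. The groups were apart, and it rose 2.78-fold (log2 change 1.48 ± 0.17, adjusted p = 1.20e-06). Pcdh19 (ENSMUSG00000051323; chromosome X, 133582860 to 133688987), known from an X-linked epilepsy, held 1.58, 1.74 and 2.18 CPM and 2.43, 1.78 and 2.27 CPM in overlapping groups and did not pass (log2 change 0.26 ± 0.21, adjusted p = 0.281). Pcdh18 was too low to test, and Pcdh10 and Pcdh8 had no count. The 250 bases before the RefSeq start of Pcdh17, Pcdh19, Pcdh10 and Pcdh8 (GRCm38.p6) follow, 5′ to 3′ on the strand of the gene, with CG pairs in capitals. They lie at chr14:84443313-84443562 (plus strand), chrX:133688994-133689243 (minus), chr3:45378148-45378397 (plus) and chr14:79771313-79771562 (minus). None of their bases lies in an exon of the gene itself in the annotation used, and exons of other genes were not checked.
Pcdh17: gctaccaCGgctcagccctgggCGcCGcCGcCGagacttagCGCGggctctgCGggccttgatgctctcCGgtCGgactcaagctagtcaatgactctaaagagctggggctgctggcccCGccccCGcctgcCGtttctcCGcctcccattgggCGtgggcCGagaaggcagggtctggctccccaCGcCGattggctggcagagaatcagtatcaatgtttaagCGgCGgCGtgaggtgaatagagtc
Pcdh19: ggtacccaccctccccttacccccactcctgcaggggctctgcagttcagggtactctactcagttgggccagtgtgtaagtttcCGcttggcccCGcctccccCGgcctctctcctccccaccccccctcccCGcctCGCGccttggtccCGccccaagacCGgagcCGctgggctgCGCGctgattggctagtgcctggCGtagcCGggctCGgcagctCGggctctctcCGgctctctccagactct
Pcdh10: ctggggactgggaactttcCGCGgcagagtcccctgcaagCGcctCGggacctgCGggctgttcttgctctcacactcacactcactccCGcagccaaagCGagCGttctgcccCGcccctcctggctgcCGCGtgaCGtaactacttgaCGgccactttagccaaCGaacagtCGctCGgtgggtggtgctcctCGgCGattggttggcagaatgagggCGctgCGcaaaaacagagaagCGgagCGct
Pcdh8: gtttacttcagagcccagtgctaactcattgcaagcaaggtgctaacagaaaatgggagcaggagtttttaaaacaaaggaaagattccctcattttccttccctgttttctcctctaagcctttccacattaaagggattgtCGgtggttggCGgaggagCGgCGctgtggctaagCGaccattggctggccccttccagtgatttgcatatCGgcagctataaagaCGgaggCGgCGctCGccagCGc
The window of Pcdh17 holds 21 CG pairs, that of Pcdh19 16, that of the silent Pcdh10 22 and that of the silent Pcdh8 11. That of Pcdh18, which is not printed, holds 23. Over 32851 RefSeq windows of the same length the median was 6, and 37.8% had at least 10. Read on both strands, none of the 4 printed windows holds CAGGTG, the E-box bound by SNAI and ZEB repressors (17.2% of all windows hold it). Nor do they hold CACGTG (6.02%) or CATGTG (12.3%), E-boxes read by MITF. The window of Pcdh8 holds TATAAA, as do 12.4% of all windows. These matches describe letters in the windows only. RefSeq windows were matched for 22 members, of which the 8 with no count had a median of 9 CG pairs (0 to 22) and the 6 tested a median of 17 (2 to 22). The other 8, with counts too few to test, had a median of 7 (5 to 30). Most tested members had no window, and the medians were not compared by a test. Some windows lie partly or wholly in exons of their own gene, with 220 exonic bases for Cdh7 and 250 for Cdh15.

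Outside these subfamilies, Pcdh12 (ENSMUSG00000024440; chromosome 18, 38267089 to 38284402), known from endothelium and trophoblast, held 0.383, 0.290 and 0.279 CPM with DMSO and 1.53, 1.04 and 2.02 with CX-5461. These were 7, 6 and 5 counts against 34, 18 and 40. Its rise was 4.81-fold (log2 change 2.27 ± 0.36, adjusted p = 3.42e-05). The 4 endothelial markers summed to 0.109 to 0.338 CPM with DMSO and 0.303 to 0.405 with CX-5461, with Kdr and Tek at or near 0. Their part in the result was not tested, and the endothelial cadherin Cdh5 had no count.

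The members differ widely in genomic span, which went with the change over all genes. The median log2 change of all genes tested was -0.069 under 10 kb, -0.079 from 10 to 50 kb, 0.044 from 50 to 100 kb, 0.32 from 100 to 200 kb, 0.97 from 200 to 400 kb and 1.71 above 400 kb, where 91.9% were higher. Cdh13 spans 1041 kb, Pcdh9 877 kb, Pcdh7 415 kb and Cdh2 220.4 kb. The 14 tested Pcdhb genes span 2.80 to 8.70 kb, a range in which 28.6% of all genes tested were higher. With an offset that removes the average relation of change to span, 15 members were higher and 4 lower. Shares over all genes were not counted for that fit, and those given here are without the offset. The 2 further lower calls were Pcdh9 (log2 change -2.04, adjusted p = 6.52e-08) and Cdh10 (-1.18, adjusted p = 2.81e-04). For Pcdh9 the change is thus measured against genes of like span, most of which were higher, while its own level stayed at 3.11 and 3.15 CPM. Whether span has a part in these changes was not tested beyond this offset.

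**Figure D5:**
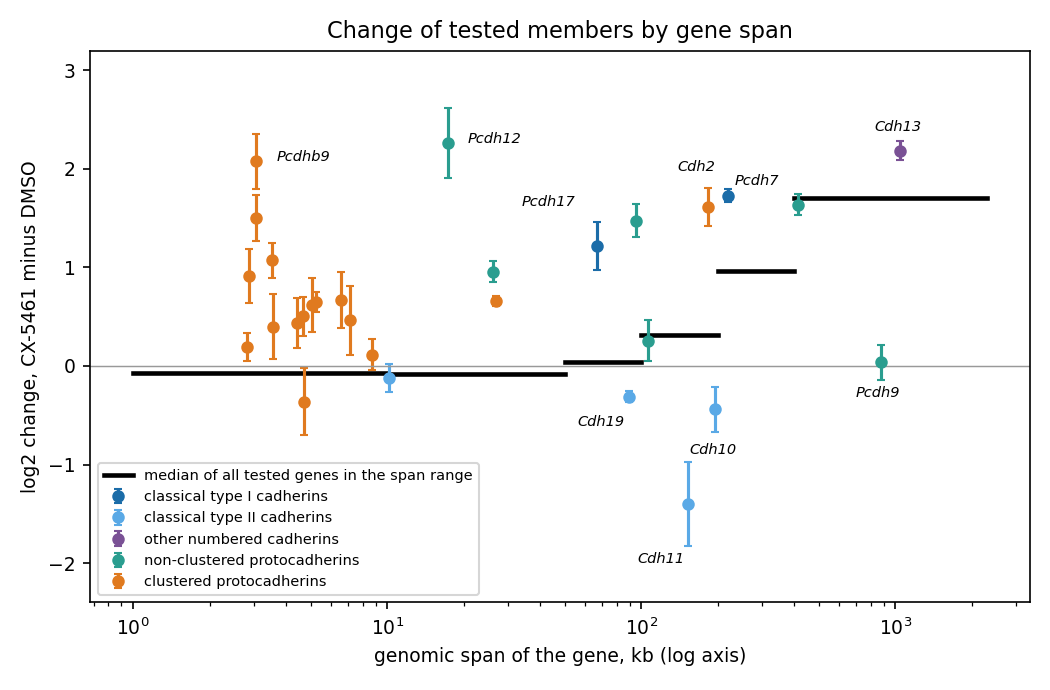
Log2 change of each tested gene against its genomic span in kb on a log axis, with SE as bars and black lines at the median of all genes tested in each span range. The medians are -0.069 and -0.079 in the first 2 ranges and climb to 1.71 in the last. Cdh13 and Pcdh7 lie near the line of their range, Pcdh9 far below it and the Pcdhb genes mostly above theirs.

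Of the listed catenins, their relatives and junction genes 10 were tested, with 9 higher and none lower, where 37.2% of all genes tested were higher. Their median log2 change was 0.36, against -0.005 over all genes tested. Pkp4, Ctnna1, Vcl and Mllt4 span 100 to 200 kb, where all genes tested had a median of 0.32 and 59.8% were higher. The other tested genes of the list span 10 to 100 kb, where the medians were -0.079 and 0.044. Values of this list and of those below are without the gene-span offset. Ctnnb1 (beta-catenin) went from 1310.0 ± 16.3 to 1489 ± 46.5 CPM (log2 change 0.18 ± 0.042, adjusted p = 0.00102). Ctnnd1, the delta-catenin that holds cadherins at the surface, went from 282 ± 3.31 to 398 ± 20.7 CPM (0.49 ± 0.046, adjusted p = 1.13e-07). The largest change was that of its relative Pkp4, from 72.3 ± 3.45 to 149 ± 3.66 CPM (1.05 ± 0.05, adjusted p = 4.82e-11). Ctnna1 (0.35), Jup (0.40), Vcl (0.31), Ctnnal1 (0.38), Arvcf (0.22) and Mllt4 (0.37), which encodes afadin, were also higher on the log2 scale, and Ctnnbip1, an inhibitor of beta-catenin, did not pass (adjusted p = 0.0536). The neural alpha-catenin Ctnna2 had no count.

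Of 13 listed transcription factors that act on classical cadherin genes, 7 were tested, with 4 higher, none lower and 3 not passed, where 73.7% of all genes tested were called. Zeb2, a repressor of Cdh1 that is also part of the melanocyte programme, held 77.6, 75.5 and 83.2 CPM with DMSO and 194, 172 and 190.4 with CX-5461, in groups far apart (log2 change 1.24 ± 0.056, adjusted p = 2.78e-11). The E proteins Tcf4 and Tcf3 changed by 0.47 and 0.24. Tcf4 spans 345.7 kb, and all genes tested of 200 to 400 kb had a median of 0.97. Zeb2 spans 133.8 kb, where the median from 100 to 200 kb was 0.32. Grhl3, an epithelial activator, was without a count in the DMSO libraries and held 1.04, 0.978 and 1.47 CPM after CX-5461. It is 1 of the 4 higher and passed the filter through the CX-5461 libraries only. Snai2, a Cdh1 repressor, was at 6.55 ± 0.239 and 7.28 ± 0.475 CPM and did not pass (adjusted p = 0.224), nor did Klf8 and Grhl1. Snai1, Snai3, Zeb1 and Grhl2 were too low to test, and Twist1 and Twist2 had no count.

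All 14 listed regulators of the protocadherin clusters were tested, and they split into 5 higher, 5 lower and 4 that did not pass (median log2 change -0.064), close to the 37.2% higher and 36.5% lower over all genes tested. Ctcf, which marks the promoters for looping, went from 71.1 ± 1.75 to 89.0 ± 2.15 CPM (log2 change 0.32 ± 0.048, adjusted p = 2.02e-05). The cohesin subunits Stag1 (0.95), Smc1a (0.38) and Stag2 (0.29) and the silencing factor Smchd1 (0.28) were higher too. Stag1 spans 361.6 kb, and all genes tested of 200 to 400 kb had a median of 0.97. Lower were Rad21 (-0.16), the cohesin loader Nipbl (-0.48), Wapal (-0.44), which releases cohesin, Wiz (-0.78) and Dnmt3b, a methylase of the cluster promoters. Dnmt3b held 11.3, 10.6 and 10.6 CPM and 4.95, 4.49 and 5.00 CPM, in groups that did not overlap (log2 change -1.16 ± 0.11, adjusted p = 1.47e-07). Smc3, Mau2, Setdb1 and Rest did not pass.

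Among the genes for proteases that cut cadherins, the 3 largest called changes at 5 CPM or more were those of Mmp14, Adam15 and Adam10. Adam10, which sheds E- and N-cadherin, went from 162 ± 6.66 to 204 ± 6.81 CPM (log2 change 0.34 ± 0.047, adjusted p = 9.91e-06). Mmp14, a membrane-bound metalloprotease, went from a mean of 210.5 to one of 296 CPM (0.49 ± 0.046, adjusted p = 1.21e-07), and Adam15 from 73.1 ± 2.68 to 95.4 ± 2.23 CPM (0.39 ± 0.049, adjusted p = 4.13e-06). Named after their values were seen, Psenen, from 8.61 ± 0.859 to 6.91 ± 0.395 CPM (-0.32 ± 0.12, adjusted p = 0.0205), and Aph1b (-0.19, adjusted p = 0.0239), which encode gamma-secretase subunits, were lower.

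The remaining cadherin superfamily was covered by 26 genes, of which 8 were tested, with 5 higher, 1 lower and 2 not passed (median 0.67), where 37.2% of all genes tested were higher. Of the 5, Celsr1, named after its values were seen, passed the filter through the CX-5461 libraries only. It had 4, 3 and 0 counts with DMSO and 16, 10 and 12 with CX-5461. Fat1, a giant cadherin of the Hippo pathway, went from 105 ± 2.88 to 219 ± 30.3 CPM (log2 change 1.07 ± 0.076, adjusted p = 5.37e-09). Cdhr4 went from 115 ± 8.89 to 238 ± 25.8 CPM (1.05 ± 0.072, adjusted p = 3.17e-09) and Cdhr2, of the microvillus tip, from 3.06 ± 0.196 to 8.86 ± 0.195 CPM (1.53 ± 0.13, adjusted p = 2.79e-08). Named after their values were seen, the calsyntenin gene Clstn3 was the 1 that was lower (-0.24), and 8 desmosomal cadherin genes (Dsc1, Dsc2, Dsc3, Dsg1a, Dsg1b, Dsg1c, Dsg3 and Dsg4) had no count.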

How the data were processed

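RNA was measured by sequencing in 6 samples of the B16 line, grouped as DMSO or CX-5461 by their titles and treatment labels. The deposited values are raw gene counts, which the authors left unnormalized, as the unequal column totals show. The submitters' processing notes name the builds GRCm38 and mm10. Not given in the sources used here are the aligner, counter, annotation, use of strand and treatment of multiply mapped reads.

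Low genes were removed with filterByExpr of edgeR 4.0.16 (minimum count 10, about 0.526 CPM), scaled by TMM and tested with its quasi-likelihood F test (R 4.3.3) on treatment alone, over all 12198 genes kept, with Benjamini-Hochberg adjustment and a threshold of 0.05. Adjusted p-values are this test's where no other is mentioned. All tests were two-sided, and SE are those of the log2 change. Spans, exonic lengths and overlaps came from GENCODE M21 (GRCm38), matched by identifier for 59 of 59 members and 21842 of 22740 genes. Promoters came from RefSeq (GRCm38.p6), for members outside chromosome 18.

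The members and gene lists were chosen with earlier results of these data known, so their counts are descriptions. Named were all members tested, untested ones with a mean of at least 0.1 CPM in a group, list genes in counted lists of at most 14, and otherwise the 3 largest called changes at 5 CPM or more. 1 gene of the protease list is not reported here, and no count is given for that list. Alternatives were other scalings, filters, tests (DESeq2 1.42.0, limma-voom in limma 3.58.1), thinned counts, a gene-span offset (loess over all genes tested), a replicate block, a threshold of 0.01 and each library left out in turn.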

Additional observations from a re-analysis of the deposited data

How the results depend on the processing

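Over all alternatives 14 to 17 members were higher. Lower were 2 in most settings, but 1 with a filter of 1 CPM in 3 libraries, which leaves out Cdh11, 1 with DESeq2, 4 with the gene-span offset and 4 with that offset and a replicate block. Leaving out 1 library gave 14 to 16 higher, 2 lower and 11 to 14 silent members. Silent were 17 members if fewer than 3 counts in all are meant, 18 at a mean under 0.1 CPM in both groups and 30 if those failing the filter are included. Signs turned as follows. The type II median was 0.86 with no filter, which adds 4 genes with 1 to 10 counts. With the gene-span offset, and with that offset and a replicate block, the log2 change was -0.067 and -0.073 for Cdh13, -0.073 and -0.085 for Pcdh19, and -2.04 and -2.05 for Pcdh9. Cdh13 is the sole tested gene among the other numbered cadherins, so their median turned with it. Pcdh9 was also at -0.038 with library totals only, where the median of all genes was -0.079. With 1 library left out, Pcdh9 ran from -0.12 to 0.16 and Pcdhb20 from -0.086 to 0.62. Same-numbered samples of the groups did not deviate together (correlations 0.036, 0.004 and -0.008), which cannot show whether they were set up together. The fit with a replicate block gave 16 higher and 2 lower and moved no call of a tested member. Depth limits members under about 0.5 CPM, and a count of 0 in 1 library allows up to 0.173 CPM there.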
